A study of Ictalurus punctatus and Ictalurus punctatus x Ictalurus furcatus with 18 samples.

Results

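The 100 liver transcripts described here had low levels, from near silent to just under a mean of 1 CPM, in catfish kept at the low temperature. They were higher in every tank kept at the high one. They were chosen by their measured levels in these same libraries, from 144746 assembled transcripts. A level is given in CPM, the reads of a transcript per 1000000 reads on all transcripts of its library. A transcript was kept where its mean over the 9 low-temperature libraries was under 1 CPM and its mean over the 9 high-temperature libraries at least 2 CPM. Its lowest high-temperature library also had to exceed its highest low-temperature library. These 3 conditions held for 141 transcripts, which were ranked by the ratio of both means, each with 0.05 CPM added, and the first 100 were taken. The difference between temperatures is therefore the basis of the choice, and it is described without a test.

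The libraries came from fingerlings of 3 types: the Red River strain of channel catfish (Ictalurus punctatus), the Delta Select strain of the same species, and the Delta Select hybrid, a cross with blue catfish (Ictalurus furcatus). The fish lived for 6 weeks in water that cycled daily between 27 and 31 °C (low) or between 32 and 36 °C (high). RNA from the livers of 3 fish of a tank was pooled into 1 library, and each type had 3 such tank pools at each temperature. Red River libraries were H1, H4 and H7 at the high and L2, L6 and L9 at the low temperature. Delta Select libraries were H3, H5 and H9, and L3, L5 and L8. Hybrid libraries were H2, H6 and H8, and L1, L4 and L7. The labels give the low regime as the better one for growth, and do not give the hour of the daily cycle at which livers were taken.

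Fish do not regulate their body temperature, so the liver of a fish in warm water works at that temperature. In vertebrates, heat that unfolds proteins frees heat shock factor 1, which turns on genes of chaperones that are hardly transcribed otherwise. The fish liver also makes most plasma proteins and runs much of the lipid and sugar metabolism, and both change when fish acclimate over weeks. Which of these genes the 100 transcripts belong to was not determined. Their identifiers hold a k with a number between 50 and 94 and a further number. The files pair no identifier with a gene, and 0 of the identifiers matched the RefSeq table of channel catfish (Coco_2.0, 32344 genes). For the same reason the labelled tissue was not checked against liver markers, and no sequence, position or role is given.

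Depth lay between 36242058 and 76146359 reads on transcripts per library. The low-temperature libraries L3 and L5, labelled Delta Select channel catfish, stood apart from L8. Of transcripts at 1 CPM or more in all 6 hybrid libraries and under 0.05 CPM in all 6 Red River and the 3 high-temperature Delta Select libraries, there were 45. Their median level was 2.37 CPM in L3, 0.928 CPM in L5 and 0 in L8, and at least 2.33 CPM in each hybrid library. The L3 and L5 values thus go against their label, and several results that rest on them are given with and without them. Without both, 99 of the 100 transcripts still met the 3 conditions, as did 169 transcripts in all, and 90 of the 100 still ranked among the first 100. In RNA from whole liver, a change in the number of cells of a type and a change in RNA per cell cannot be told apart. An identifier is an assembled transcript and not a gene, and reads of 1 gene, of paralogs or of both parental species may be shared among identifiers.

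The summed level of the 100 transcripts was higher in every tank of the high regime than in any of the low one, as the rule requires of each transcript. At the low temperature the sum was 36.12 CPM in the lowest library (L4), 42.02 in the median and 69.57 in the highest (L3). At the high temperature it was 394.1 CPM in the lowest library (H8), 1022 in the median (H5) and 1668 in the highest (H1). The lowest high-temperature tank was thus 5.66 times the highest low-temperature tank, L3, with the next low-temperature tank at 45.04 CPM. In this sum, the tanks of the high regime differed more among themselves than those of the low regime did, which need not hold for each transcript.

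**Figure D1:**
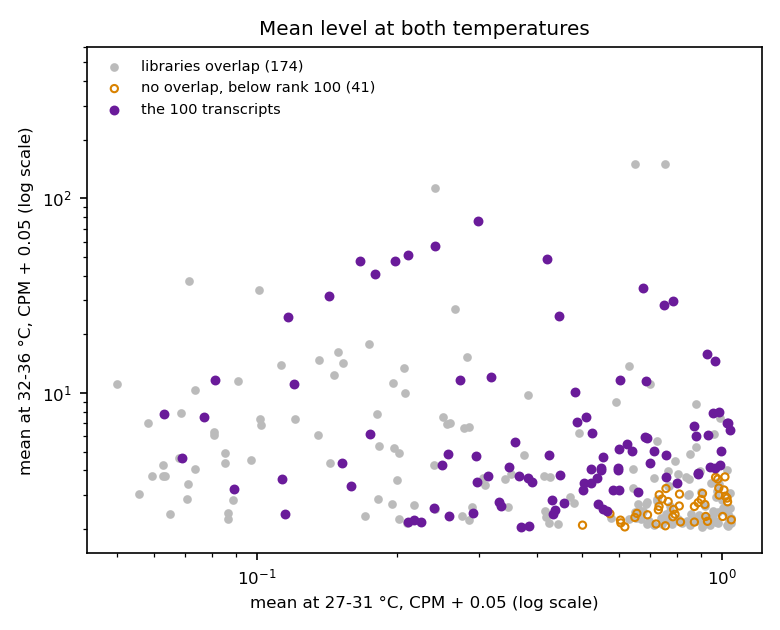
Mean level at the low (x axis) and the high (y axis) temperature, in CPM with 0.05 added, both on log scales, for all transcripts that met both level conditions. Filled purple points are the 100 transcripts, open points the 41 ranked below them, and grey points the 174 whose libraries overlapped between temperatures; 11 of the 100 have a ratio above 100.

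The ranking was steep. The ratio of the rule ran from 286.8 at the top over a median of 8.862 to 4.274 at rank 100, with 4.266 just outside. It was above 100 for 11 transcripts, above 30 for 23 and above 10 for 46. Levels at the high temperature were modest, with a median of 4.447 CPM over the 100, 22 transcripts at 10 CPM or more and 59 under 5 CPM. At the low temperature the median was 0.4353 CPM and 23 transcripts stayed under 0.2 CPM.

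None of them was fully absent at the low temperature. Each had at least 5 reads over the 9 low-temperature libraries, and 14 had a low-temperature library with 0 reads. The lowest high-temperature library exceeded the highest low-temperature library by 2.55 times in the median transcript and by only 1.027 times in the closest one. Among transcripts that met the other conditions, the mean low level nearest the limit was 0.9971 CPM inside and 1.008 CPM outside, and the mean high level 2.002 CPM inside and 1.99 CPM outside. A further 174 transcripts met both level conditions but had libraries that overlapped, 20 of them with a mean of at least 10 CPM at the high temperature. In the opposite direction, only 4 transcripts met the mirrored conditions, with the low regime in place of the high one.

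The leading transcript was k94:1388479. Its levels at the high temperature were 115.5, 67.46 and 45.16 CPM in Red River tanks H1, H4 and H7. They were 57.98, 50.96 and 10.58 CPM in Delta Select tanks H3, H5 and H9, and 44.91, 29.84 and 6.671 CPM in hybrid tanks H2, H6 and H8. The lowest low-temperature library had 0 reads, the median was 0.1062 CPM (L1) and the highest 0.2212 CPM (L9). Every high tank was thus far above every low tank, while H9 and H8 were much lower than the other tanks of their own types. The summed reads, 21583 against 45, gave a ratio of 408 per read sequenced, with an exact 95% interval of 305 to 559 that covers counting error only.

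The transcript k78:1282572 had the highest level of the 100, with 76.18 ± 49.2 CPM at the high and 0.2486 ± 0.143 CPM at the low temperature (SD, n = 9 and 9). It reached 178.1, 109 and 78.18 CPM in H1, H4 and H7, 79.57, 70.19 and 16.73 CPM in H3, H5 and H9, and 79.5, 62.51 and 11.91 CPM in H2, H6 and H8. The order of the tanks was close to that of k94:1388479, with H1 highest and H8 lowest. The transcript of the next highest level, k86:359383, had 56.94 ± 38.7 and 0.1912 ± 0.12 CPM (SD, n = 9 and 9). Its level stood in a nearly fixed ratio to that of k78:1282572, between 0.716 and 0.79 over the 9 high tanks, although k78:1282572 itself varied 15-fold.

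**Figure D2:**
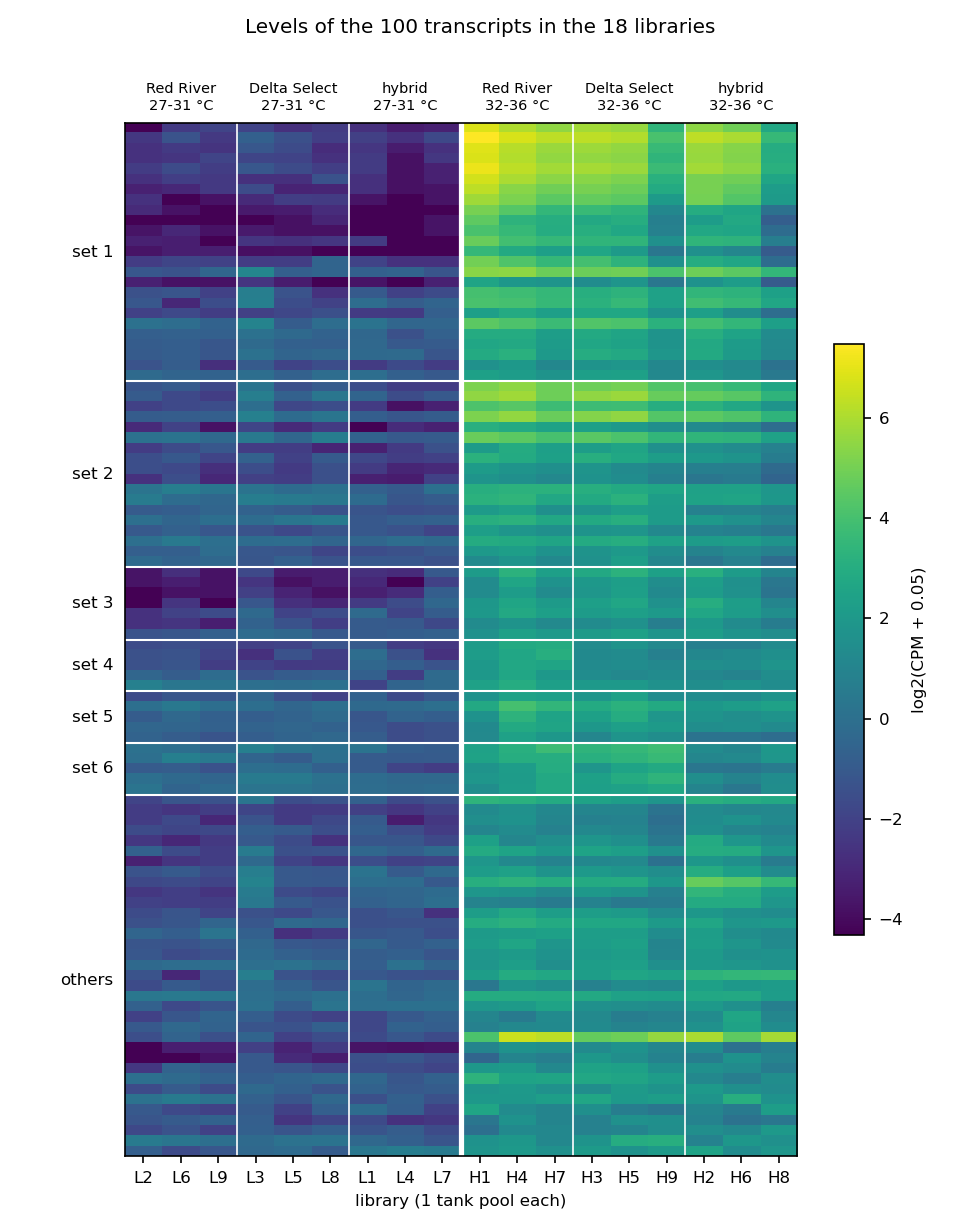
Level of each of the 100 transcripts (rows) in each library (columns, 1 tank pool each), as log2(CPM + 0.05), with low-temperature libraries left of the thick line and types marked above. Rows are grouped by the sets of transcripts that varied together over the high tanks; in set 1 the tanks H9 and H8 are darker than the other high tanks.

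Because the choice used all 18 libraries, the rule was also applied to 2 types at a time and read in the type left out. The lists chosen in 2 types were higher at the high temperature in the type left out as well. The 3 conditions in Delta Select and hybrid fish gave 151 transcripts, and in Red River fish all 3 high tanks lay above all 3 low tanks for 146 of them. That is 96.7% of the list, where 11.0% of the 96799 transcripts tested had this order in Red River fish. In Red River and hybrid fish the conditions gave 177 transcripts, of which 165, or 93.2%, were so ordered in Delta Select fish, against 18.8% of all. In both channel catfish strains they gave 214 transcripts, of which 190, or 88.8%, were so ordered in hybrids, against 16.6% of all. All 214 had a higher mean at the high temperature in hybrids. Without L3 and L5, the list read in Red River fish had 212 transcripts and that read in hybrids 257. Of these, 192, or 90.6%, and 222, or 86.4%, were so ordered, against 11153 and 16873 of the 104367 transcripts tested.

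A transcript is called where edgeR's quasi-likelihood test gives an adjusted p under 0.05 over the 96799 transcripts tested (Benjamini-Hochberg). Of the lists chosen in the other 2 types with all libraries, 142 of 151 were called higher in Red River fish, 157 of 177 in Delta Select fish and 149 of 214 in hybrids. Over all transcripts tested, 3.75%, 5.66% and 1.77% were called higher in these types. The estimate of the spread in this test was shared with the types that chose the list. Without L3 and L5, which leaves L8 alone at the low temperature, 96.6% of the 177 had the 3 Delta Select tanks above L8 and 58.8% were called, where 44.3% and 1.22% of all transcripts tested were. The median ratio of means in the type left out was 7.02 for Red River, 5.13 for Delta Select and 3.48 for hybrid fish. These are ratios of different lists and were not compared.

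**Figure D3:**
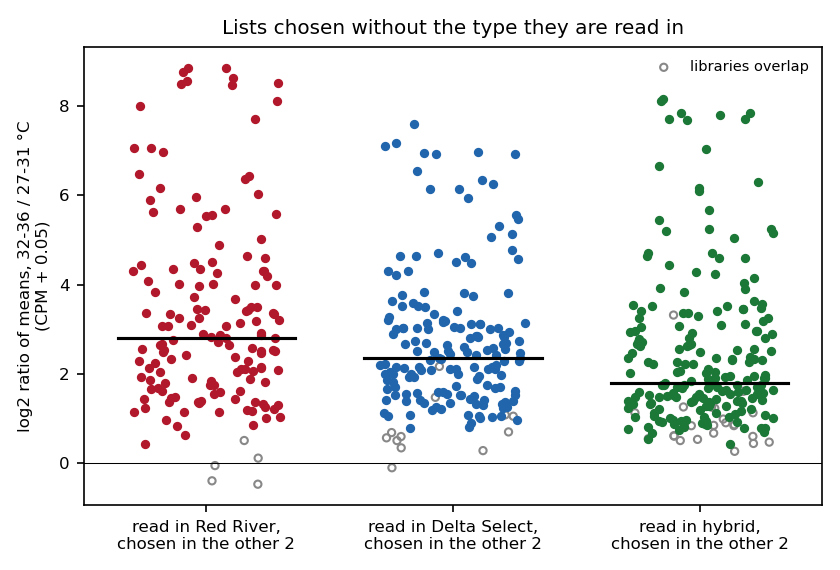
Log2 ratio of the mean level at 32 to 36 °C over that at 27 to 31 °C (y axis, CPM + 0.05) in the type named on the x axis, for transcripts chosen by the 3 conditions in the other types only. Filled points had all 3 high above all 3 low libraries, open points did not, and bars are medians; filled points make up 146 of 151, 165 of 177 and 190 of 214.

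Levels at the high temperature were then compared between the types. The contrast between types is not the one that chose the members, but the rule shaped what can be seen in it. A transcript with a high tank of any type at or below its highest low tank could not enter. Transcripts found only in hybrids, or only in channel catfish, were thus barred, but can count among all transcripts tested. The shares over all transcripts are therefore not a matched measure of direction. All 100 passed the filter on low counts. Red River fish had the highest of the 3 type means for 67 transcripts and hybrids the lowest for 67. The median of the type means was 5.531 CPM in Red River, 4.564 CPM in Delta Select and 3.535 CPM in hybrid fish. At the low temperature these medians were 0.3309, 0.4507 and 0.3832 CPM. Type contrasts at the low temperature were not tested. A call between types is therefore of a level at the high temperature and not of a rise.

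Of the 100 transcripts, 37 were called lower and 4 higher in hybrid than in Red River fish. Over all transcripts tested, 13.2% were lower and 17.7% higher in that contrast. The median log2 difference was -0.82 over the 100 and -0.01 over all transcripts. Against Delta Select, 23 were lower and 5 higher in hybrids, where 12.5% and 17.0% of all transcripts were, with medians of -0.25 and -0.01. The count lower in hybrids was 24 against Red River without H4, and 13, 15 and 13 against Delta Select without H3, without H5 and without H8. The count higher than in Red River fish was 1 without H1, H5, H6 or H7, 2 without H2, L6, L7 or L9, and 6 without L3. The count higher than in Delta Select fish was 3 without H5, H6 or H9. Without L3 and L5, 34 were lower and 6 higher in hybrids than in Red River fish, and 23 lower and 7 higher than in Delta Select fish. Both contrasts use the same hybrid tanks. A test of any difference among the 3 types called 39 of the 100, against 31.5% of all transcripts. The share called was thus near that of all transcripts. More of the 100 were called lower than higher in hybrids, but the rule could bear on this direction, and its part was not tested. Of the 100, 21 were called lower and 4 higher in hybrids than in both strains, where 8.54% and 13.9% of all transcripts were.

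The strains of channel catfish differed little by this test. Only 2 of the 100 were called higher in Red River than Delta Select fish and 0 lower, where 0.13% and 0.152% of all transcripts were. The log2 difference was above 0 for 85 of the 100, with a median of 0.38, and the median of all transcripts was near 0 (-0.00363). An unadjusted p under 0.05 was found for 18 of the 100 and 8.94% of all. With 1 library left out, this count ran from 9 of the 100 (without H4 or H9) to 32 (without H8). Over all transcripts it was 8166 of 99834 without H4 and 9317 of 99651 without H9. Without either of these tanks, the share of the 100 was thus near that of all. The median log2 difference of the 100 ran from 0.212 (without H9) to 0.511 (without H7). DESeq2 and limma-voom each called 3 higher and 0 lower, where they called 0.417% and 0.131% of all higher.

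**Figure D4:**
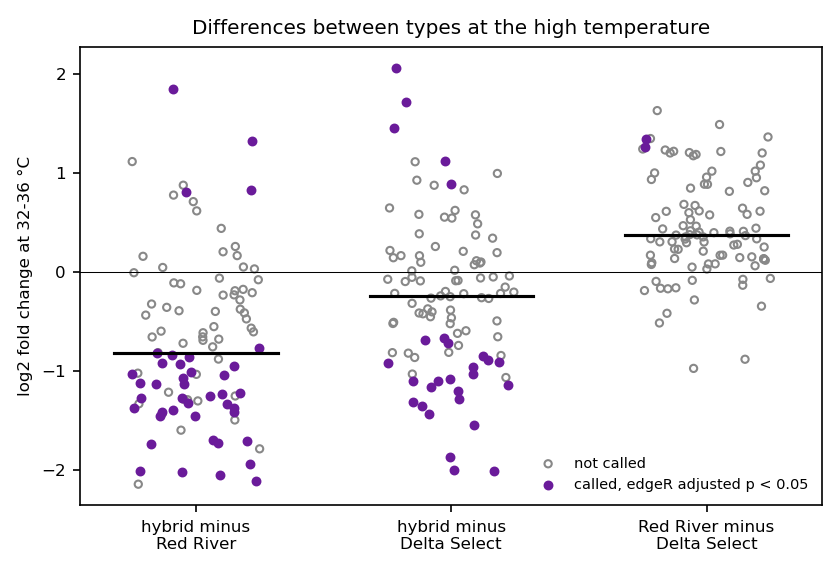
Log2 fold change between types at 32 to 36 °C (y axis) for each of the 100 transcripts in the 3 contrasts (x axis), with a bar at the median. Filled points were called by edgeR; 37 of the filled points lie below 0 for hybrid minus Red River and 23 for hybrid minus Delta Select.

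The largest excess in hybrids belonged to k62:2053371. Its high-temperature levels were 7.38, 7.385 and 3.599 CPM in hybrid tanks H2, H6 and H8. They were 1.879, 1.704 and 1.427 CPM in Red River tanks H1, H4 and H7, and 1.812, 1.324 and 1.455 CPM in Delta Select tanks H3, H5 and H9. Every hybrid tank was above every channel catfish tank, as the rule for named transcripts required. The log2 fold change was 1.86 ± 0.34 (SE) against Red River and 2.07 ± 0.34 against Delta Select (edgeR, adjusted p = 0.000546 and 0.000245), and it remained called under all 24 alternatives. At the low temperature its mean was 0.7205 CPM in hybrid, 0.1805 CPM in Red River and 0.6972 CPM in Delta Select fish. The hybrid mean was thus above that of Red River fish at the low temperature as well. The highest low-temperature library was L3, at 1.29 CPM, the next being hybrid L7 at 0.9047 CPM.

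The transcript k86:791986 had a similar pattern at a higher level. It had 26.19, 20.3 and 11.89 CPM in hybrid tanks H2, H6 and H8, and 7.328, 7.538 and 3.693 CPM in Delta Select tanks H3, H5 and H9. No hybrid tank fell into the Delta Select range, as the rule for named transcripts required (log2 fold change 1.72 ± 0.44, edgeR adjusted p = 0.00921). Against Red River, where tanks H1, H4 and H7 had 8.487, 9.877 and 8.171 CPM, the log2 difference of 1.118 ± 0.43 was not called (edgeR adjusted p = 0.063). The transcript k90:1931628, with 11.01, 8.061 and 4.508 CPM in the hybrid tanks and 3.61, 3.326 and 2.335 CPM in the Red River tanks, was at the edge. Its log2 fold change of 1.33 ± 0.47 had an edgeR adjusted p of 0.0459 and was not called under 13 of 24 alternatives, where the adjusted p reached 0.16. At the low temperature, hybrid and Red River means were 0.718 and 0.1457 CPM for k90:1931628, and 0.7291 and 0.2488 CPM for k86:791986. The Delta Select means, with L3 and L5 included, were 0.6519 CPM for k90:1931628 and 0.9283 CPM for k86:791986.

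Against Delta Select, the largest falls in hybrids with no overlap of tanks were those of k94:1391873 and k90:1941377. The transcript k90:1941377 had 1.209, 1.126 and 1.456 CPM in hybrid tanks H2, H6 and H8, against 3.251, 4.523 and 7.912 CPM in Red River tanks H1, H4 and H7. In Delta Select tanks H3, H5 and H9 it had 3.493, 5.623 and 7.147 CPM, so that the hybrid range lay below both, as its choice required. Its log2 fold changes were -2.06 ± 0.32 and -2.01 ± 0.32 (edgeR, adjusted p = 0.000172 and 0.000211). In k94:1391873 the levels were 2.566, 2.003 and 3.801 CPM in the hybrid tanks and 10.1, 11.74 and 14.01 CPM in the Delta Select tanks (-2.01 ± 0.33, adjusted p = 0.000325). Both remained called under all 24 alternatives.

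The transcript k78:768340u, among the most switched-on by the rule, had the largest fall in hybrids against Red River fish among those called. It had 2.99, 2.103 and 0.465 CPM in H2, H6 and H8, against 11.61, 7.221 and 4.955 CPM in H1, H4 and H7 (log2 fold change -2.11 ± 0.63, edgeR adjusted p = 0.0258). It was not called without H1, H4 or H6, without L3 and L5, or with only the high-temperature libraries fitted (adjusted p up to 0.0934).

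The pair called higher in Red River than Delta Select fish was k58:1831151 and k78:1283182. The former had 3.842, 6.734 and 5.94 CPM in H1, H4 and H7, and 2.469, 2.608 and 2.259 CPM in H3, H5 and H9 (log2 fold change 1.27 ± 0.23, edgeR adjusted p = 0.0221). The latter had 4.433, 7.2 and 7.6 CPM, and 2.561, 3.301 and 2.237 CPM in the same tanks (1.34 ± 0.28, adjusted p = 0.049). The tanks of the strains did not overlap in either. The former was not called without any of H3, H4, H5, H7 and H9 (adjusted p up to 0.113) and the latter under 12 of 24 alternatives (up to 0.199), with log2 fold changes of at least 1.07 throughout.

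Whether the temperature change itself differed between types was asked by a joint interaction test. It called 0 of the 100 and 0.0% of all transcripts in edgeR. At an unadjusted p under 0.05 it had 27 of the 100, against 11.3% of all. DESeq2 called 7 of the 100 and 1.25% of all, and limma-voom 0, with 12 of the 100 and 8.49% of all at an unadjusted p under 0.05. Without L3 and L5 it called 0 of the 100 and 0.0556% of all, and 18 of the 100 and 8.36% of all had an unadjusted p under 0.05. Without L8, so that the low regime has only L3 and L5 for Delta Select, edgeR called 5 of the 100 and 3.46% of all. The ratio of means within a type had a median of 13.52 among Red River, 8.279 among Delta Select and 8.278 among hybrid fish, and it exceeded 10 for 64, 40 and 42 of the 100. Against L8 alone, without L3 and L5, the Delta Select median was 10.52 and 52 exceeded 10, a calculation added after the data were seen.

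Tanks of 1 type differed strongly in these transcripts. The SD of log2(CPM + 0.05) over the 3 high tanks of a type, averaged over the types, had a median of 0.473 over the 100 and of 0.275 over all transcripts tested. These medians were 0.4 and 0.258 within Red River, 0.479 and 0.255 within Delta Select, and 0.567 and 0.251 within the hybrid. The spread of 65% of the 100 was above the upper quartile of all transcripts, 0.397. Transcripts of matched level were not compared, so the larger spread is not shown to be particular to the 100. Between the highest and the lowest of the 9 high tanks, the level differed 4.3-fold in the median transcript and over 10-fold in 15.

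The tanks at the extremes were mostly the same. Hybrid tank H8 was the lowest high tank for 58 of the 100 transcripts, Delta Select tank H9 for 16 and hybrid tank H6 for 12. Red River tanks H4 and H1 were the highest for 35 and 27. Depth was alike in H1, H4, H8 and H9, between 46035679 and 49464202 reads. At the low temperature L3 was the highest library for 42 of the 100 transcripts and L8 for 13. The same counts were not made over all transcripts tested, so these are not shown to be particular to the 100. Why these tanks stood at the extremes was not tested.

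The widest spread was that of k78:900812, with 23.35, 9.959 and 7.99 CPM in H1, H4 and H7, and 7.013, 8.068 and 1.651 CPM in H3, H5 and H9. In hybrid tanks H2, H6 and H8 it had 4.559, 6.859 and 0.5256 CPM, so H1 was 44.4 times H8. It was also the transcript with the fewest low-temperature reads, 5 in all, of which L8 held 3. Next was k86:835458, which fell from 33.74 CPM in H1 to 2.172 CPM in H9 and 1.011 CPM in H8. At the other end, k82:1072590 was nearly level over the tanks, between 4.609 CPM in H8 and 7.646 CPM in H4, with 7.558, 7.646 and 7.315 CPM in the Red River tanks. The next smallest SD within types was that of k62:1670370, at 0.219. Over the 9 high tanks it still varied 2.6-fold, between 3.639 CPM in H8 and 9.452 CPM in H4. Its hybrid tanks, at 5.323, 5.357 and 3.639 CPM, lay below the Red River tanks, at 8.339, 9.452 and 9.287 CPM (log2 fold change -0.94 ± 0.21, edgeR adjusted p = 0.0027). The hybrid mean was also the lower one at the low temperature, at 0.6755 CPM against 1.29 CPM in Red River fish.

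Many of the transcripts fell into sets whose levels went up and down over the same tanks, though not by the same fold. Sets were formed by average linkage on Pearson's r of log2(CPM + 0.05) over the 9 high tanks, stopped at r = 0.8, and described where they held at least 5 transcripts. The 9 tanks share type and library, so r is a description. This gave 6 sets with 65 of the 100 transcripts, while 23 were in groups of 2 to 4 and 12 stood alone. Over all 4950 pairs the median r was 0.483, and 0.532 with the type means removed. Neither r nor sets were worked out over all transcripts tested, so varying together is not shown to be particular to the 100.

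**Figure D5:**
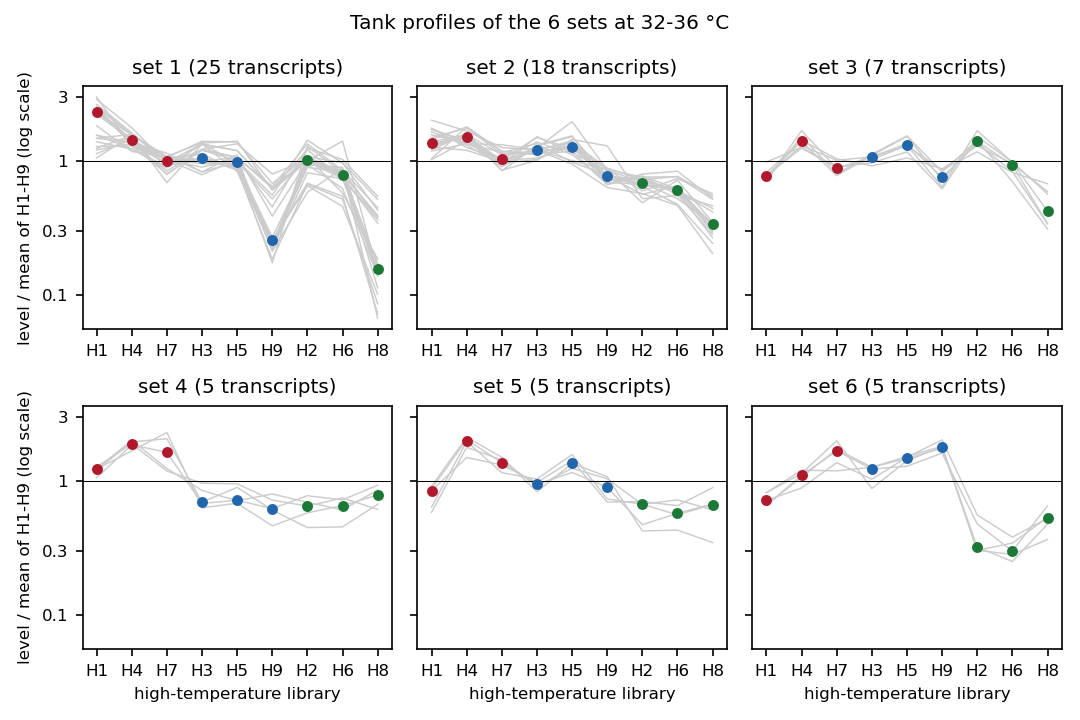
Level of each transcript in a high-temperature library divided by its mean over H1 to H9 (y axis, log scale), by library (x axis), for the 6 sets. Grey lines join the values of 1 transcript and points are medians over the set, in red for Red River, blue for Delta Select and green for hybrid tanks; set 1 drops in H9 and H8, and set 6 is low in the 3 hybrid tanks.

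Set 1 held 25 transcripts, with all of the first 10 ranks and 13 of the first 14. How many genes these identifiers stand for was not determined. Its summed level was 1185, 760 and 523.7 CPM in Red River tanks H1, H4 and H7. It was 561.8, 504.9 and 153.2 CPM in Delta Select tanks H3, H5 and H9, and 531.3, 410.8 and 101.9 CPM in hybrid tanks H2, H6 and H8. No low-temperature library had more than 14.44 CPM. Tank H1 was the highest for 18 of the 25 and H8 the lowest for 24.

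The tanks of 1 type differed widely in set 1, with summed levels of 822.8 ± 335 CPM in Red River, 406.6 ± 221 CPM in Delta Select and 348 ± 222 CPM in hybrid fish (SD, n = 3). Its median r was 0.926, and 0.959 with the type means removed. There 24 of the 25 still shared a set, although the largest set then held more transcripts than set 1. Fewer stayed together when sets were stopped at r = 0.9, 18 of the 25, or formed on Spearman's rho, 16 of the 25. All 25 had their highest type mean in Red River fish. Only 2 were called lower in hybrids than in Red River fish, and 0 were called in the other contrasts and directions between types. In H1 the set made up 71.0% of the summed level of the 100 transcripts and in H8 25.9%. The set held steeper and flatter members. For 15 transcripts the highest tank was over 10 times the lowest, by 12.5-fold or more, and for the other 10 by at most 8.4-fold. Their reads were not proportional within counting error, with a chi-square of 37.3 per degree of freedom over the set, against 2.22 for the pair k78:1282572 and k86:359383.

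Set 2 held 18 transcripts that were lower in hybrids. All 18 were called lower in hybrid than in Red River fish and 13 lower than in Delta Select fish, though the sets were formed on these tanks, so the counts describe the set and do not test it. Its summed level was 243.2, 272.5 and 176.5 CPM in the Red River tanks H1, H4 and H7. It was 216.7, 234.1 and 131.3 CPM in the Delta Select tanks H3, H5 and H9, and 122.7, 105.3 and 58.85 CPM in the hybrid tanks H2, H6 and H8. The H8 tank was the lowest for all 18, as it was for most of set 1, while the drop in H9 was shallower.

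Its most abundant members were k50:2868724 and k78:356488. The former had 46.47, 54.78 and 29.47 CPM in H1, H4 and H7, 45.31, 52.83 and 26.87 CPM in H3, H5 and H9, and 25.36, 21.13 and 10.31 CPM in H2, H6 and H8. It was called lower in hybrids than in Red River fish (log2 fold change -1.22 ± 0.41, edgeR adjusted p = 0.034) but not than in Delta Select fish (-1.07 ± 0.40, adjusted p = 0.0604). The latter was called against both (-1.13 ± 0.33 and -0.96 ± 0.33, adjusted p = 0.0167 and 0.038). The ratio between them stayed from 0.746 to 0.973 over the 9 high tanks.

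Set 3 held 7 transcripts with the same fall in H8 but no lead of Red River fish. Its summed level was 22.78, 41.27 and 26.25 CPM in H1, H4 and H7, 30.45, 38.81 and 22.46 CPM in H3, H5 and H9, and 41.1, 25.46 and 13.28 CPM in H2, H6 and H8. The highest tanks thus belonged to all 3 types, and 0 of the 7 were called between types in any direction; k90:1896175, for example, gave -0.36 ± 0.52 (log2) for hybrid minus Red River. The transcripts k90:1896175 and k82:1033926 had the highest levels in it, with means of 6.145 and 4.825 CPM at the high temperature. At the low temperature both were highest in hybrid library L7, at 0.4386 and 0.7128 CPM.

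In sets 4 to 6, as in set 2, the tanks of 1 type lay apart from the others in summed level, but tanks also varied within types. With the type means removed, the median r went from 0.879 to 0.44 in set 4. It went from 0.87 to 0.814 in set 5 and from 0.94 to 0.809 in set 6. Set 4, with 5 transcripts, was higher in Red River tanks, at a summed 22.02, 34.38 and 30.92 CPM in H1, H4 and H7, than in any other high tank, where the highest had 14.67 CPM (H5). All 5 were called lower in hybrid than in Red River fish, and the pair called between the strains belongs to it. As for set 2, these counts describe a set formed on the same tanks and do not test it. Its most abundant members, k58:1850577 and k86:774280, averaged 6.113 ± 1.62 and 6.418 ± 1.99 CPM over the Red River tanks (SD, n = 3). In hybrids they averaged 2.826 ± 0.294 and 2.494 ± 0.389 CPM.

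Set 5 peaked in Red River tank H4, at a summed 43.83 CPM, with 17.84 and 31 CPM in H1 and H7. Delta Select tanks H3, H5 and H9 had 21.96, 30.62 and 20.22 CPM, all above H1, and the hybrid tanks had between 13.44 and 15.28 CPM. Set 6 had its highest type mean in Delta Select fish for all 5 transcripts. Its summed level was 32.29, 40.42 and 50.07 CPM in H3, H5 and H9, 20.33, 30.08 and 43.32 CPM in H1, H4 and H7, and 10.56, 8.586 and 14.17 CPM in the hybrid tanks H2, H6 and H8. All 5 transcripts of set 6, k90:1941377 and k94:1391873 among them, were called lower in hybrids than in either strain. This count, too, describes a set formed on these tanks and is no test of it. Tank H9 was the highest in set 6 and next to the lowest in sets 1 and 3.

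One strongly switched-on transcript followed none of these sets. It is k90:1918785, at rank 11, singled out after its values were seen. It had 17.33, 91.51 and 77.85 CPM in Red River tanks H1, H4 and H7, 25.62, 29.42 and 49.44 CPM in Delta Select tanks H3, H5 and H9, and 63.22, 23.66 and 58.93 CPM in hybrid tanks H2, H6 and H8. No low-temperature library exceeded 0.6449 CPM (L3). It was lowest in H1, where set 1 was highest, and high in H8, where set 1 was lowest, and its r with any other of the 100 was at most 0.679.

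The identifiers of the 100 transcripts differed from those of all assembled transcripts in the number after the k. It was at least 78 in 60% of them and in 31.1% of all assembled transcripts, with medians of 78 and 66. An ending u was found in 4 of the 100 and in 6.1% of all. All assembled transcripts include those that failed the filter on low counts, which the 100 passed, and no comparison at matched levels was made. What these parts of an identifier stand for is not given in the sources used here.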

How the data were processed

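Each library was made with a TruSeq version 2 kit and read from 1 end, per the labels' protocols. The table used, as deposited by the authors, holds raw counts of reads per assembled transcript, 144746 in all, for 18 libraries. The submitters' processing notes name Bowtie2 2.1.0, DESeq 1.12.1 and R 3.1.0 but no role for them. Which assembler and counter were used, and whether strand was, is not given in the sources used here. Library sizes and tests leave out a row naming no transcript (24.2% to 25.6% of reads). The deposited normalized table was not used.

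Groups were taken from sample titles. Nothing says that library numbers pair samples. Pairs within groups differed beyond sampling noise (chi-square per degree of freedom 9.58 to 46.2), and p-values measure the spread between tank pools. CPM for levels and for the rule used column sums. Type contrasts at the high temperature, the interaction and the change within each type were tested with edgeR 4.0.16 in R 4.3.3 (quasi-likelihood, robust, TMM, 1 mean per group over all 18 libraries, filterByExpr with minimum count 10 and minimum total 15). This kept 96799 transcripts, and p-values were adjusted over all of them (Benjamini-Hochberg). Standard errors come from the F statistic. The script was tested on simulated data. Alternatives were DESeq2 1.42.0, limma-voom 3.58.1, DESeq2 size factors, no filter, only high-temperature libraries, and fits without L3 and L5 or without each library.

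The members, the rule for named transcripts and the tests were chosen with earlier results of these data known. Named were the 2 transcripts of highest ratio and of highest level, the 2 of largest change per type contrast and direction among called ones without overlap, the 2 most abundant of each of the 4 largest sets, and the 2 of widest and of narrowest spread. The contrasts of hybrids with each strain share the hybrid libraries.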

Additional observations from a re-analysis of the deposited data

Results flagged for a closer look

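For the named transcripts and for their summed level, the 9 libraries of each temperature were searched for a library far from the others (the gap to the next library over the whole range, against Dixon's 95% critical value for 9). This flagged 5 of 44 groups of 9 libraries, and chance flags about 1 in 20. The groups mix 3 types and share the same libraries, and some transcripts were named for their spread over the high tanks. The number flagged is therefore no measure of an excess over chance. At the low temperature, L3 stood apart in the summed level of the 100 transcripts, at 69.57 CPM with the next library at 45.04, and in k86:791986, at 1.914 CPM with the next at 0.9023. Also at the low temperature, k86:774280 had 0.8758 CPM in L1, with the next library at 0.3525, and k78:900812 had 0.06759 CPM in L8, with the next at 0.02741. At the high temperature, k78:900812 had 23.35 CPM in H1, with the next library at 9.959.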

How the results depend on the processing

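Most results kept their value: for the main counts and shares, 269 alternative values stayed close to the reported one (counts and shares within 1.5 times) and 23 moved, and for named transcripts 205 stayed, 35 lost the call and 0 reversed. With stricter levels (under 0.5 CPM at the low, at least 5 CPM at the high temperature) 22 transcripts met the conditions in place of 141. Leaving out 1 library at a time gave 27 to 44 of the 100 called between hybrid and Red River fish (41 with all), 18 to 31 between hybrid and Delta Select (28), 0 to 3 between the strains (2) and 0 to 5 in the interaction (0). With only high-temperature libraries fitted, 4 were called between the strains. DESeq2 called 7 in the interaction. Without L3 and L5, 58.8% of the list chosen without Delta Select were called there, in place of 88.7%. L8 is then the lone low-temperature library and is assumed to vary like the other groups. The largest set had 25 transcripts, 50 when joined down to r = 0.7, 42 with type means removed, and 20 to 48 with 1 library left out. The cause of these moves was not tested, except that stricter levels admit fewer transcripts.

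No paired analysis was made. Library numbers run over all tanks of a regime, and nothing says that a number shared between the regimes pairs samples. Depth limits the low-temperature levels: 5 reads in 9 libraries leave the interval of a ratio wide (249 to 1796 for k78:900812). Counting intervals cover counting error only.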
